A study of Mus musculus with 4 samples.

Results

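The Sox transcription factors examined here are 10 members of the family (Sox1, Sox2, Sox3, Sox4, Sox5, Sox6, Sox8, Sox9, Sox11 and Sox21), taken as every probe on the array whose gene name was one of these symbols. The array held 25 such probes on 34 spots, of 41174 probes and 28632 gene names in all, and they covered 9 of the 10 genes. No probe carried the name Sox3, so Sox3 was not analysed here. A probe was tested when the scanner software called its signal well above the local background in all 4 animals of at least 1 genotype. This left 14 probes of 8 genes, since none of the 3 Sox5 probes passed.

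RNA came from whole cerebellum of mice at postnatal day 30. The study compared 4 Dicer mutants (mGfap-Cre; Dicer flox/flox) with 4 control littermates (mGfap-Cre; Dicer +/flox), and each of 4 two-colour arrays carried 1 such pair of mice. Controls therefore carried the same Cre and 1 floxed allele, so the comparison is between loss of 1 and of 2 Dicer alleles in Cre-expressing cells. The Cre is driven by a mouse Gfap promoter, the strain background was mixed, and the mutant was labelled with Cy5 in pairs 1 and 3 and with Cy3 in pairs 2 and 4. Dicer is the enzyme that cuts microRNAs from their precursors, and the title of the series places its deletion in astroglia. All values below are log2 ratios of mutant over control with the SD over the 4 pairs, unless a level is named, and the threshold for a call was an adjusted p under 0.05 in a limma fit over 18025 genes (one probe per gene, the brightest) or over 25915 probes.

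Sox proteins bind DNA through a high mobility group box like that of the sex-determining protein SRY, and usually act together with a partner transcription factor. They are grouped by sequence. SoxB1 proteins (Sox1, Sox2, Sox3) keep neural progenitors undifferentiated, and Sox2 stays on in mature astroglia, including the Bergmann glia of the cerebellum. SoxB2 proteins (Sox14, Sox21) carry a repressor domain and oppose SoxB1. SoxC proteins (Sox4, Sox11, Sox12) act in newly formed neurons. SoxD proteins (Sox5, Sox6, Sox13) lack an activation domain of their own, and SoxE proteins (Sox8, Sox9, Sox10) specify glia: Sox9 marks astroglia and Sox10 the oligodendrocyte lineage.

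Sox21 was the gene whose probes differed most among themselves, so the start of each of its 60-base probes is shown. They are printed 5′ to 3′ in the direction of the transcript, as the first 30 bases, with stop triplets (taa, tag or tga in any reading frame) in capitals. On the minus strand of chromosome 14 (build mm9, coordinates from the array files) they lie at chr14:118634540-118634599 for A_52_P557911, chr14:118633888-118633947 for A_52_P406411 and chr14:118633227-118633286 for A_52_P326502.
Sox21 A_52_P557911: ctcaaaaaggacaagttcgccttccccgtg
Sox21 A_52_P406411: agggggcccggtttgtatgtacaTAGatgt
Sox21 A_52_P326502: gaagttgtcagttcgatattctaccccTGA
The first of these held 0 stop triplets in its 60 bases, the second held 2 and the third 3. A_52_P326502 lies nearest the 3′ end of the gene, with A_52_P406411 at 661 bases and A_52_P557911 at 1313 bases upstream of it. The array file assigns A_52_P326502 to NM_177753 and the other two to NM_145464, which was not in the reference table used here, so that their gene name rests on the array file. Coding and untranslated parts were not assigned, because no annotation of build mm9 was used.

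Sox21, the SoxB2 repressor, fell in the mutants at its brightest probe and was the 1 called gene of the 8 tested. At A_52_P326502 the ratio was -0.87, -0.65, -0.62 and -1.01 in pairs 1 to 4. The mean was -0.79 ± 0.18, a 1.73-fold lower level, with a 95% confidence interval of -1.01 to -0.57 on the log2 scale and an adjusted p = 0.0262 from limma. It was lower in 4 of 4 pairs. Across all genes, 1.03% were called in either direction (186 of 18025) and 0.444% were called lower. The levels behind the ratio were log2 intensities of 7.83, 7.67, 7.80 and 7.94 in the controls and 6.95, 7.02, 7.18 and 6.94 in their mutant littermates. Every mutant lay below every control, and the probe was well above background in both genotypes on all 4 arrays. Over all genes tested, the levels of the 4 mutants and 4 controls did not overlap for 3.98%. The direction was the same in both dye orders: the mean ratio was -0.74 with the mutant in Cy5 and -0.83 with the mutant in Cy3. In whole tissue, fewer cells of a type and less RNA per cell cannot be told apart, here and in every result that follows.

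The upstream Sox21 probes did not show this difference. A_52_P557911, well above background in both genotypes on all 4 arrays, read -0.13, 0.13, -0.02 and -0.00026 in the 4 pairs. Its mean was -0.01 ± 0.11, with a 95% confidence interval of -0.17 to 0.15 and an adjusted p = 0.990 in the limma fit over probes, in which A_52_P326502 had an adjusted p = 0.0307. Controls (7.34 to 7.41) and mutants (7.27 to 7.47) overlapped in log2 intensity at this probe. In mean log2 intensity, A_52_P326502 was brighter than A_52_P557911 in controls (7.81 against 7.37) but dimmer in mutants (7.02 against 7.36). The choice of A_52_P326502 as the brightest probe thus rested on the controls. The middle probe, A_52_P406411, reached that standard in 1 mutant and 2 controls, was not tested, and had a mean ratio of -0.06 ± 0.12. Within each pair, A_52_P326502 read below A_52_P557911 by -0.74, -0.78, -0.60 and -1.01, a mean difference of -0.78 ± 0.17 in 4 of 4 pairs. The exact two-sided sign-flip test of that difference gave p = 0.125, the smallest that 4 pairs allow. As a description, the spread between tested probes of a gene had a median of 0.05 over the 4112 genes with the same number of tested probes, and Sox21's was larger than that of 99.7% of them. Which transcripts each of these probes reads was not tested.

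**Figure D1:**
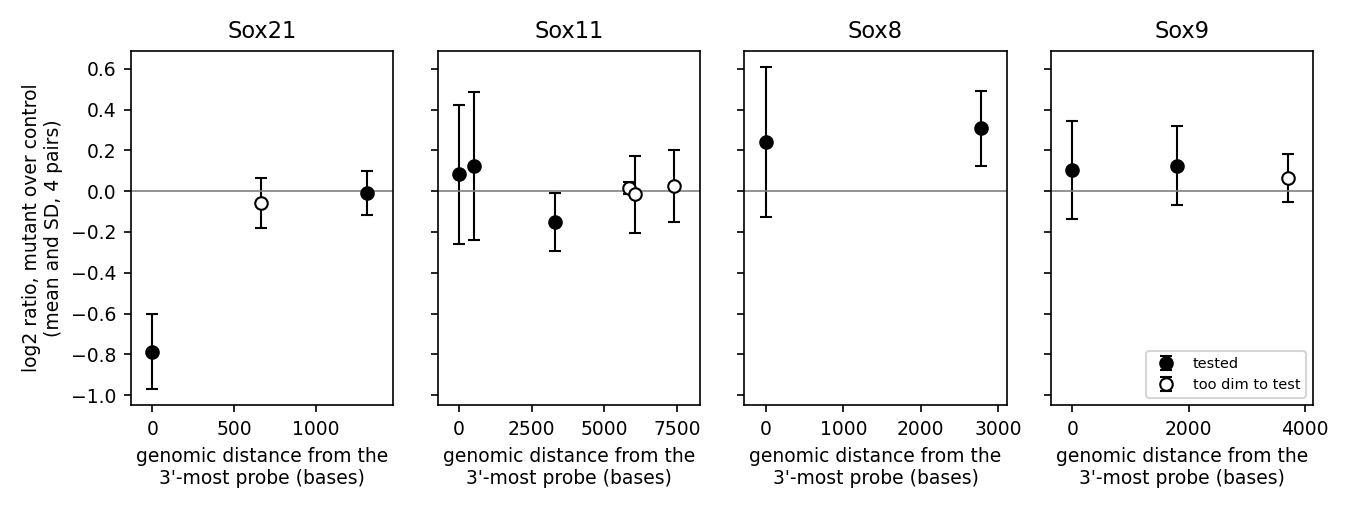
Mean log2 ratio of mutant over control (vertical axis, bars are the SD over 4 pairs) for every probe of Sox21, Sox11, Sox8 and Sox9 against its genomic distance in bases from the probe nearest the 3′ end (horizontal axis, introns included), with filled circles for tested probes and open circles for dim ones. The 3′-most Sox21 probe stands at -0.79, while the Sox21 probes at 661 and 1313 bases stand at -0.06 and -0.01.

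The Sox21 call depended on the processing more than its direction did. Over 17 alternatives the ratio of the gene ran from -1.27 (the scanner software's own processed signals, and the deposited value table made from them, adjusted p = 0.0397) to -0.40 (the mean over its tested probes). In limma, the call ended with that mean (adjusted p = 0.105) and with all spots in the background fit (-0.59, adjusted p = 0.143). It also ended without pair 1 (-0.72, adjusted p = 0.142) and without pair 3 (-0.85, adjusted p = 0.0688). The reported order, with flagged spots left out of the background fit, was chosen with earlier results of these data known. The only call among the members thus depended on that choice.

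Genes whose ratios over the 4 pairs were closest to those of Sox21, by root mean square difference over the 18025 genes, were Nkain4, Ddah1 and Cibar2. Nkain4, named for an interaction with the sodium/potassium pump, differed from Sox21 by 0.0558 and had a mean of -0.84 ± 0.16. Ddah1, which breaks down methylated arginines that inhibit nitric oxide synthase, differed by 0.0744 and had a mean of -0.74 ± 0.21. The distance of Cibar2 was 0.108, with a mean of -0.83 ± 0.09. All 3 were called lower in the limma fit, with adjusted p = 0.0193 for Nkain4, 0.0311 for Ddah1 and 0.0114 for Cibar2. They were picked for ratios near those of a called gene, so these calls follow largely from the choice and are no separate result.

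Among the SoxB1 genes, Sox2 had a ratio above 0 in 4 of 4 pairs but was not called. Its single probe, A_52_P307739, lies at chr3:34550773-34550832 on the plus strand, and its first 30 bases, with stop triplets in capitals, identify which sequence was read.
Sox2 A_52_P307739: tggcaatcaaatgtccattgtttaTAAgct
The ratio was 0.02, 0.36, 0.32 and 0.37 in pairs 1 to 4, so pair 1 showed almost no difference and the other 3 lay close together. The mean was 0.27 ± 0.17, a 1.20-fold higher level, with a 95% confidence interval of 0.08 to 0.45 and an adjusted p = 0.297 (limma; unadjusted p = 0.0129). Levels overlapped, at 9.54 to 9.75 in controls and 9.57 to 10.07 in mutants. In the RefSeq table, Sox2 lies within the long noncoding gene Sox2ot. The 3 probes named for Sox2ot had mean ratios of -0.21 ± 0.16, -0.15 ± 0.28 and -0.04 ± 0.11, the last too dim to test, and no tested one passed (adjusted p = 0.597 and 0.850 in the limma fit over probes). Sox2ot was named here after its values were seen.

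Sox1 gave a ratio of 0.01 ± 0.12 at its 1 probe, with a 95% confidence interval of -0.17 to 0.19 and an adjusted p = 0.988 (limma). The 4 pairs read -0.09, 0.08, 0.14 and -0.10, in both directions. The sign of its fitted ratio turned without pair 2 or pair 3, and the ratio was 0.09 with the scanner software's signals or the deposited values.

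Of the SoxE members, neither Sox8 nor Sox9 was called. Sox8 is expressed with Sox9 and Sox10 in glia and is often redundant with them. It had 2 probes on the minus strand of chromosome 17, at chr17:25705869-25705928 (A_52_P269667) and, towards the 3′ end, chr17:25703094-25703153 (A_52_P269672). They are shown because they gave like means but different pairs.
Sox8 A_52_P269667: cagattacaaataccagccaaggcgaagga
Sox8 A_52_P269672: atatttgctcacattTGAgaagtttcgctt
The upstream and brighter probe read 0.23, 0.24, 0.18 and 0.58, above 0 in 4 of 4 pairs. Its mean was 0.31 ± 0.18 (1.24-fold higher, 95% confidence interval 0.12 to 0.50) with an adjusted p = 0.229 (limma; unadjusted p = 0.00874). The 3′ probe read 0.08, 0.76, 0.21 and -0.09, with a mean of 0.24 ± 0.37 and an adjusted p = 0.815 in the limma fit over probes. Its fitted ratio was 0.03 without pair 2 and 0.45 without pair 4. These values weigh the dye orders equally and are not plain means of the remaining pairs. Pair 4 was the highest of the pairs at the upstream probe and the lowest at the 3′ probe, and pair 2 was the highest at the 3′ probe.

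Sox9, which directs the formation of astroglia and remains on in them, did not differ beyond the spread between pairs. At A_52_P577484 the ratio was -0.16, 0.19, 0.29 and 0.18, with a mean of 0.13 ± 0.19, a 95% confidence interval of -0.10 to 0.35 and an adjusted p = 0.792 (limma). A_52_P214630 was printed at 10 spots on each array and read -0.12, -0.09, 0.31 and 0.31, with a mean of 0.10 ± 0.24. The SD between its spots on 1 array was 0.04 to 0.07 (9 spots in pair 3, where 1 was flagged), smaller than its SD of 0.24 between pairs. Pair 1 was below 0 and pairs 3 and 4 above 0 at both probes, while pair 2 differed in sign between them. The remaining Sox9 probe, A_51_P451606, was well above background on 1 of 4 arrays in each genotype and stood at 0.07 ± 0.12. With the dye orders weighed equally, the fitted ratio without pair 3 was 0.0149 at A_52_P577484 and -0.0035 at A_52_P214630. Without pair 1 it was 0.24 at A_52_P577484. These are not plain means of the remaining pairs.

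**Figure D2:**
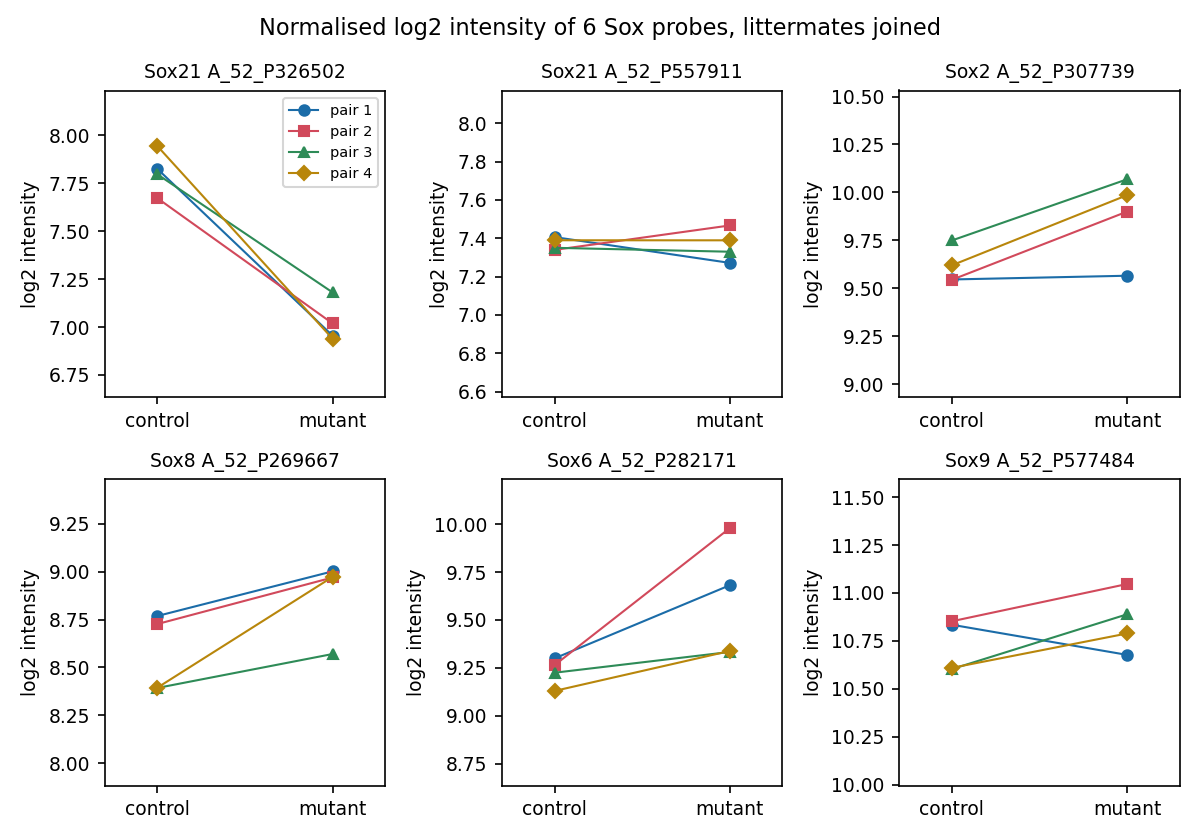
Normalised log2 intensity (vertical axis, each panel spanning the same range of 1.6 log2 units) in the control and the mutant of each littermate pair, joined by a line, for 6 probes of Sox21, Sox2, Sox8, Sox6 and Sox9. At Sox21 A_52_P326502 all 4 lines fall and the mutants (6.94 to 7.18) lie below the controls (7.67 to 7.94), whereas at Sox21 A_52_P557911 the lines are nearly level.

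Sox6 is a SoxD protein that, with Sox5, holds back the maturation of oligodendrocytes and acts in cortical and striatal interneurons. It had the largest upward ratio of the members, at 0.35 ± 0.27, with no call. Its 2 tested probes lie on the minus strand of chromosome 7 at chr7:122618380-122618439 (A_52_P282171) and chr7:122615418-122615477 (A_52_P475356), 2962 bases further 3′. Both are shown because they differed in size of ratio as reported.
Sox6 A_52_P282171: gctctccaTAAgctgttTAAggtactgcta
Sox6 A_52_P475356: ttgtatttgccatgtacaattcTGAattac
A_52_P282171 read 0.38, 0.72, 0.11 and 0.21 in pairs 1 to 4, highest in pair 2. The mean had a 95% confidence interval of 0.09 to 0.62 and an adjusted p = 0.343 (limma; unadjusted p = 0.0175). Its log2 levels, 9.13 to 9.30 in controls and 9.33 to 9.98 in mutants, did not overlap, which was so for 2 of the 8 genes (Sox6 and Sox21) and for 3.98% of all genes. At the 3′ probe the ratio was 0.02, 0.24, 0.12 and -0.02, with a mean of 0.09 ± 0.11 and an adjusted p = 0.884 in the limma fit over probes. The size of this contrast depended on the processing. With the scanner software's signals or the deposited values, the 3′ probe read 0.27 and A_52_P282171 read 0.39. The other 3 Sox6 probes were well above background on no array, with mean ratios of -0.08 to 0.13. The ratio of the gene ran from 0.22 with the mean over its tested probes to 0.48 without pair 4, where the adjusted p was 0.0620, the lowest over the alternatives.

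Sox5, the partner of Sox6, was above background on 0 of 4 arrays in either genotype at each of its 3 probes. Mean ratios there were -0.04 ± 0.10, 0.02 ± 0.10 and -0.05 ± 0.10, and no direction was read from them.

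The SoxC genes Sox4 and Sox11, which promote the early programme of neurons and fall as neurons mature, were not called. Sox4 had 1 probe, which read -0.0011, -0.06, -0.10 and 0.10, with a mean of -0.02 ± 0.09, a 95% confidence interval of -0.18 to 0.14 and an adjusted p = 0.968 (limma). The sign of its fitted ratio turned under 5 of 17 alternatives. Sox11 had 6 probes, the most of any member, of which 3 were tested. Its brightest probe, A_52_P160955, read -0.22, 0.33, 0.43 and -0.20, with a mean of 0.08 ± 0.34 and an adjusted p = 0.930 (limma). A_51_P297434, 522 bases upstream, read -0.26, 0.53, 0.32 and -0.09, with a mean of 0.13 ± 0.36. Both had pairs 2 and 3 above 0 and pairs 1 and 4 below it. The third tested probe, A_51_P283516, 3316 bases upstream, read -0.23, -0.19, 0.06 and -0.25, with a mean of -0.15 ± 0.14. Its ratio was -0.44 with the scanner software's signals or the deposited values, again with no call. The sign of the fitted Sox11 ratio turned without pair 2 or pair 3. Its other 3 probes, well above background in at most 3 of 4 arrays of a genotype, had means of -0.02 to 0.02.

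**Figure D3:**
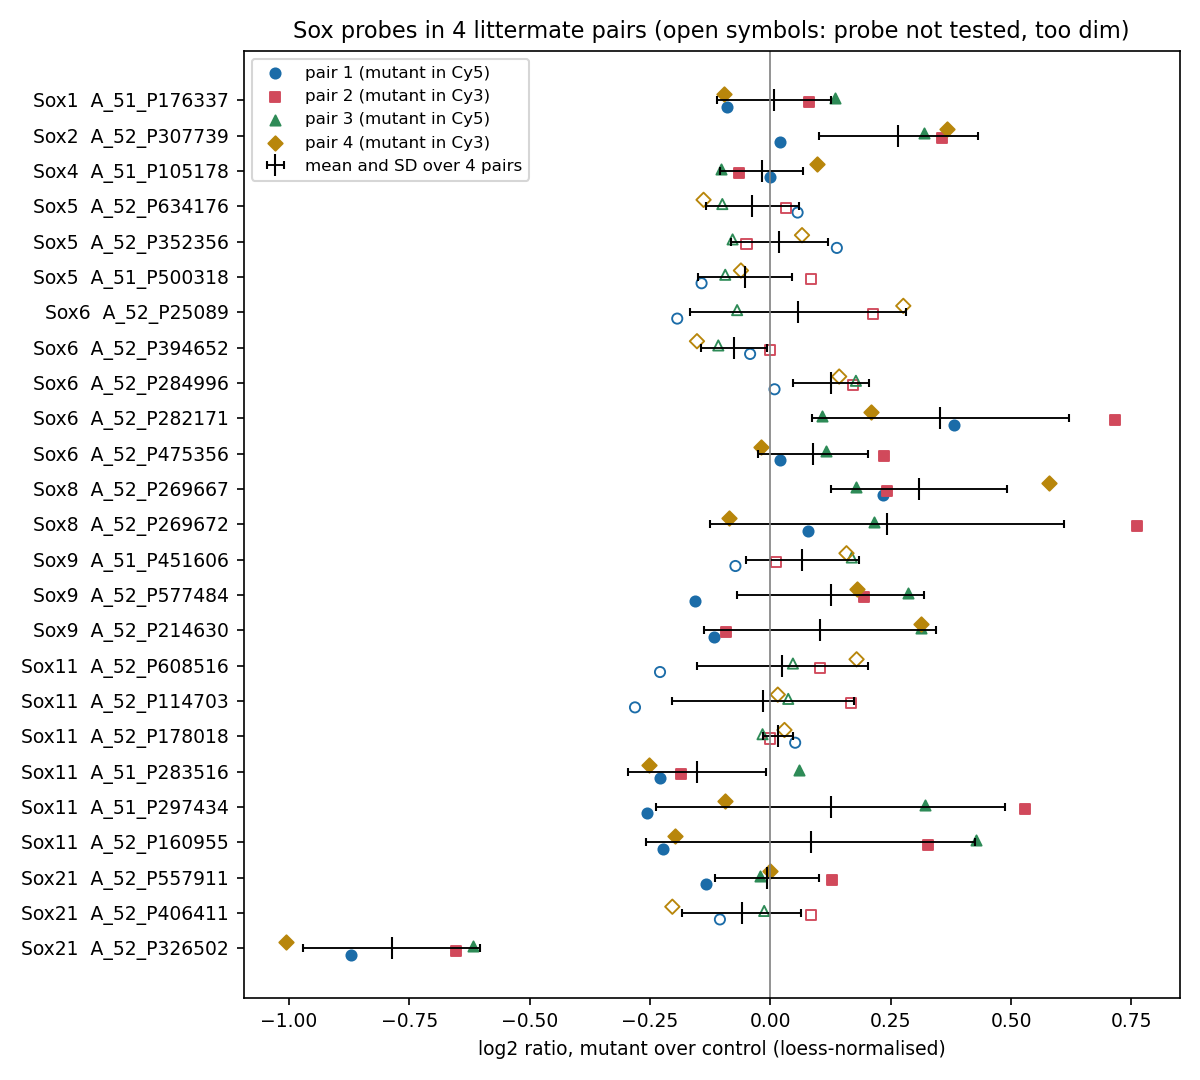
Log2 ratio of mutant over control (horizontal axis) of all 25 Sox probes (rows) in each of 4 littermate pairs, with the mean and SD as a black bar and whiskers, filled symbols for tested probes and open symbols for dim ones. The 4 values of Sox21 A_52_P326502 lie between -1.01 and -0.62, apart from the other rows, and those of Sox2, Sox8 A_52_P269667 and Sox6 A_52_P282171 lie above 0.

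Over the 8 tested genes, the median ratio was 0.10, against 0.0023 for all 18025 genes. The members' median rested on single pairs: it was 0.24 without pair 1, 0.07 without pair 2, 0.01 without pair 3 and 0.17 without pair 4. In 4 of 8 the ratio had the same sign in all 4 pairs (Sox2, Sox6 and Sox8 above 0, Sox21 below), against 15.1% of all genes. An unadjusted p under 0.05 was reached by the same 4 genes, against 9.39% of all genes. Of the 14 tested probes 1 was called, lower, against 0.83% of all probes in either direction and 0.343% lower. Levels of the genotypes did not overlap for 2 of the 14, against 3.52% of all probes, and 4 of the 14 kept 1 sign in all pairs, against 14.2%. The median SD between pairs was 0.18 for the members and 0.16 for all genes. As the members were chosen with earlier results of these data known, these shares are a description only.

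**Figure D4:**
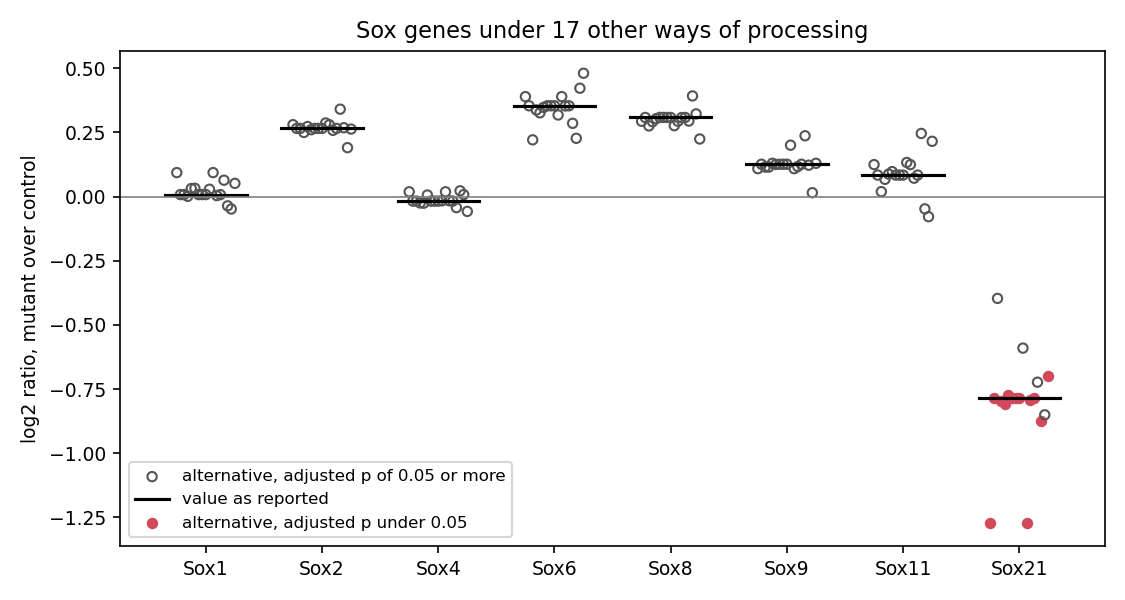
Log2 ratio of mutant over control (vertical axis) of the 8 tested Sox genes (horizontal axis) as reported (black bar) and under each of 17 other ways of processing (circles, red where the adjusted p was under 0.05). Sox21 stays below 0 throughout, from -1.27 to -0.40, and no circle of another gene is red. With the scanner software's signals or the deposited values, the brightest probe changed for Sox8 (to A_52_P269672) and Sox9 (to A_52_P214630). Those circles therefore show another probe than the black bar.

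The 9 other Sox genes on the array gave 7 tested genes and 0 calls by limma. An unadjusted p under 0.05 was reached by 2 of them (Sox10 and Sox13), against 9.39% of all genes. Sox13, the third SoxD gene, read 0.24, 0.40, 0.19 and 0.22, with a mean of 0.26 ± 0.10, above 0 in 4 of 4 pairs, and an adjusted p = 0.212. Sox10, the SoxE factor of the oligodendrocyte lineage, read -0.14, -0.37, -0.09 and -0.26, with a mean of -0.22 ± 0.12, below 0 in 4 of 4 pairs, and an adjusted p = 0.299. Its sign was opposite to that of Sox8 A_52_P269667 in every pair, but not to that of Sox8 A_52_P269672 in pair 4. Neither gene passed the test, and their difference was not tested. The SoxF genes of blood vessels were Sox7 (-0.11 ± 0.04), Sox17 (-0.08 ± 0.50) and Sox18 (0.02 ± 0.20). The SoxC gene Sox12 stood at -0.04 ± 0.13 and Sox15 at -0.06 ± 0.05. The signs of the fitted ratios of Sox12, Sox17 and Sox18 turned under at least 1 alternative. Sox14, the other SoxB2 gene, and Sox30 were too dim to test.

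Genes known to work with Sox proteins were taken from lists of partners and of targets, which describe the pathway and do not measure Sox activity. These lists, and the marker lists further below, were chosen with earlier results of these data known. Their shares beside those of all genes are therefore a description only. Of 18 tested partner transcription factors, 0 were called by limma and 3 had an unadjusted p under 0.05, against 9.39% of all genes. Their median was -0.04. The smallest p belonged to the POU factor Pou3f1 (0.30 ± 0.55, above 0 in 2 of 4 pairs, adjusted p = 0.140). Pou3f1 read -0.18, 0.83, -0.16 and 0.71, below 0 with the mutant in Cy5 and above 0 with it in Cy3. Its adjusted p was 0.846 in limma without the dye term. Next by p were the oligodendrocyte factors Olig2 (-0.21 ± 0.15) and Olig1 (-0.23 ± 0.18), both below 0 in 4 of 4 pairs.

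Of 10 tested SoxB1 targets, 3 rose, 0 fell and 7 did not pass, where 0.588% of all genes were called higher. An unadjusted p under 0.05 in limma was reached by 6 of the 10, against 9.39% of all genes. Because the list was chosen with earlier results known, these shares are no independent result. Their median was 0.26. Vim, an intermediate filament of immature and reactive glia, read 1.01, 0.81, 0.93 and 0.92, with a mean of 0.92 ± 0.08 (adjusted p = 0.00685, limma). Fabp7, a brain lipid-binding protein of radial and Bergmann glia, read 1.35, 0.89, 1.58 and 0.43, with a mean of 1.06 ± 0.51 (adjusted p = 0.0171). The cyclin D1 gene Ccnd1 read 1.24, 1.00, 0.65 and 1.04, with a mean of 0.98 ± 0.24 (adjusted p = 0.0241). These 3 genes were higher in 4 of 4 pairs each. None held its call under every alternative: without pair 1 the adjusted p was 0.0509 for Vim, 0.0537 for Fabp7 and 0.0586 for Ccnd1, and without pair 3 it was 0.0548 for Fabp7. Fabp7 also lost its call with no replicate block (adjusted p = 0.0735), and Ccnd1 with the scanner software's signals or the deposited values (0.0541) and with median centring (0.0601).

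Of 8 tested SoxC targets, 0 were called by limma and 4 had an unadjusted p under 0.05, against 9.39% of all genes. The list median was 0.01. Dcx, a microtubule protein of young neurons, stood at 0.52 ± 0.25 and was above 0 in 4 of 4 pairs (adjusted p = 0.0706). Tead2, a partner of the Hippo pathway's coactivators, stood at -0.30 ± 0.06, and Stmn1, a microtubule-destabilising protein, at -0.33 ± 0.35.

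Of 23 tested SoxE and SoxD targets, 0 rose, 2 fell and 21 did not pass, where 0.588% of all genes were called higher and 0.444% lower. The median was -0.22 and 18 of 23 ratios were below 0. An unadjusted p under 0.05 in limma was reached by 10 of the 23, against 9.39% of all genes. Here too the list was chosen with earlier results known, so these shares are no independent result. S100b, a calcium-binding protein of astroglia, read -0.54, -0.67, -0.46 and -0.59, with a mean of -0.56 ± 0.09 (adjusted p = 0.0231, limma). Col9a2, a cartilage collagen, read -0.42, -0.59, -0.49 and -0.67, with a mean of -0.54 ± 0.11 (adjusted p = 0.0242). Both were lower in 4 of 4 pairs. Bcan, a proteoglycan of brain matrix, had the next smallest p, at -0.32 ± 0.24 (adjusted p = 0.152). Adjusted p-values of S100b and Col9a2 were 0.194 and 0.178 without pair 1, 0.123 and 0.174 without pair 3, and 0.117 and 0.175 with no replicate block. S100b further missed the threshold with the scanner software's signals or the deposited values (0.0624), and Col9a2 with median centring (0.0624) and with all spots in the background fit (0.148).

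**Figure D5:**
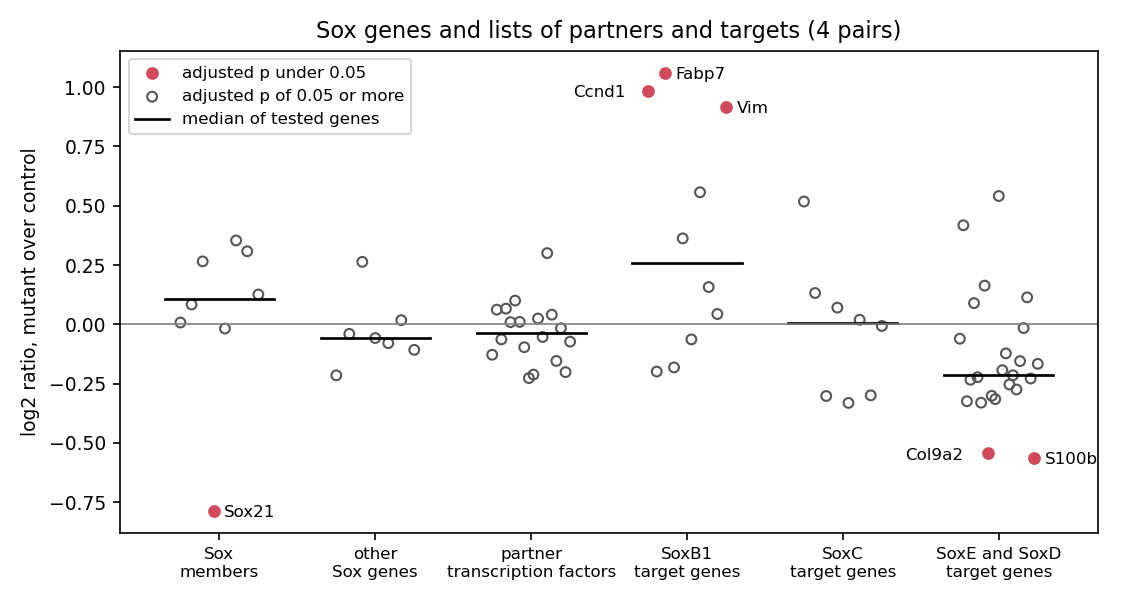
Log2 ratio of mutant over control (vertical axis, mean of 4 pairs) of each tested gene (circles) in the Sox members, the other Sox genes and the lists of partners and targets (horizontal axis), with the median of each set as a bar and genes with an adjusted p under 0.05 named in red. Red genes are Sox21 among the members, 3 SoxB1 targets above 0 and 2 SoxE and SoxD targets below 0.

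Cell-type markers moved alongside some of these genes. Of 18 markers of Bergmann glia and other astroglia, the cells in which Sox2, Sox9 and Fabp7 are known to be on, 3 rose and 6 fell, and the median was -0.42. Over all genes, 0.588% were called higher and 0.444% lower. Ratios were below 0 for 14 of the 18. Those called lower were Dao (-1.39), Ndrg2 (-0.72), Slc1a2 (-0.57), S100b (-0.56), Aqp4 (-0.54) and Gria4 (-0.44). Those called higher were Aldh1l1, Gfap (1.47) and Fabp7 (1.06). Fabp7 and S100b thus stand both in this list and in the target lists. Aldh1l1, a folate enzyme of astroglia, rose by 1.504 ± 0.23 (adjusted p = 0.00529, limma), while the glutamate transporter Slc1a3 stood at -0.51 ± 0.29 (adjusted p = 0.0899) and the Bergmann glia gene Gdf10 at 0.87 ± 0.46 (adjusted p = 0.0632). The mean log2 level over that list was 13.35 to 13.49 in controls and 13.16 to 13.42 in mutants. Of 15 markers of the oligodendrocyte lineage, 0 were called by limma and 6 had an unadjusted p under 0.05, against 9.39% of all genes. Ratios were below 0 for 13 of them and the median was -0.23. Sox10, Olig1 and Olig2 are in the list, and Pdgfra, Mbp, Mag and Cnp are among the genes shared with the SoxE and SoxD targets. Their mean log2 level was 11.45 to 11.77 in controls and 11.34 to 11.53 in mutants. The 8 tested markers of immature neurons and progenitors share Dcx, Stmn1, Tubb3 and Nes with the target lists. Of these 8 markers, 0 were called by limma and 5 had an unadjusted p under 0.05, against 9.39% of all genes. Their median was 0.28, with mean levels of 10.51 to 10.71 in controls and 10.67 to 11.11 in mutants. Of 12 tested granule neuron markers, 0 were called by limma and 0 had an unadjusted p under 0.05. Their median was 0.01. Of 10 tested Purkinje neuron markers, 0 were called and 1 had an unadjusted p under 0.05. Their median was -0.02, with 7 ratios below 0 and 3 above. The preset granule neuron gene Gabra6 (0.01) and Purkinje neuron gene Calb1 (-0.0025) had the largest p of their lists. Ttr, a gene of the choroid plexus, read 0.17 ± 0.76, and the mean over 8 tested choroid plexus and ependymal markers was 0.01, -0.27, 0.47 and 0.45 in pairs 1 to 4. Every tested marker of the lists named here was well above background on at least 1 array of each genotype. The part of these markers in the Sox results was not tested.

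As a check of the whole series, 26291 to 28907 probes per channel were well above background, 143 to 248 spots per array carried an outlier flag, of which 1 was a spot of a member, and none was saturated. Dicer1 stood at 0.04 ± 0.22 (adjusted p = 0.947, limma) in whole tissue. Whether its probe lies in the deleted part of the gene is not given in the sources used here, so it does not check the labels. The labels call the 4 pairs biologically independent, and their number limits the precision of every value.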

How the data were processed

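Two-colour Agilent arrays of 4 littermate pairs on 1 slide were used, 500 ng of RNA per channel, per the labels. The deposited files hold linear spot and background intensities from Agilent Feature Extraction (version 10.5.1.1) that were not normalized, and probe coordinates on mm9, per the file headers. They also hold the software's processed intensities and a log10 ratio. The authors' deposited value table holds that log10 ratio turned to mutant over control (largest difference 4.842e-06).

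Here, limma 3.58.1 in R 4.3.3 (with jsonlite 2.0.0 and the package data.table, version 1.17.8) corrected background by normexp (offset 50, spots with an outlier flag left out of the fit), normalized by loess within arrays and averaged spots of a probe. The log2 ratios were fitted with a dye and a genotype term, moderated variances and Benjamini-Hochberg adjustment over all genes or probes. With 1 pair left out, the fitted ratio still weighs the dye orders equally, so it is not the plain mean of the remaining pairs. Tested probes also had values in at least 3 pairs, from each dye order. The brightest probe stood for a gene; symbols came from the reference table where the accession matched (17 of 25 member probes). Levels are normalized channel intensities. Each ratio pairs littermates by design. The script was tested on simulated data.

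The members, the lists and the order of flags and background fit were chosen with earlier results of these data known. Named genes were all Sox genes, called or 3 smallest-p genes of each partner or target list, preset markers, the called astroglial markers and the 3 genes nearest a called member. In all, 17 alternatives were run.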

Additional observations from a re-analysis of the deposited data

Results flagged for a closer look

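In 3 of 33 ratios checked for a pair far from the other 3 (Dixon's test, which flags about 1 in 20 sets by chance), 1 pair stood apart. For Sox2, pair 1 read 0.0195 while the other pairs read 0.32 to 0.37. Its fitted ratio was 0.34 without that pair. For Sox8 at A_52_P269667, pair 4 read 0.58 while the others read 0.18 to 0.24. Its fitted ratio was 0.22 without pair 4. For Sox15, pair 3 read 0.017 while the others read -0.09 to -0.08.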

How the results depend on the processing

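Of 555 recomputed values of single genes or probes, 512 kept their direction and their side of the threshold, 22 lost a call, 0 gained one and 21 changed sign; the cause was not tested. Sox21 stayed below 0 in all 17 alternatives.

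Called Sox members numbered 1 of 8 as reported and 0 with the mean over probes or with all spots in the background fit. Called member probes numbered 1, and 0 with all spots in that fit. Leaving out 1 pair gave 0 to 1 in each case. Called partner and target genes numbered 5 as reported, 3 with the processed signals, the value table or median centring, 2 with no replicate block (channels fitted without their pairing), and 0 to 7 with 1 pair left out. Other Sox genes gave 0 calls throughout. Over all genes, 106 were called higher and 80 lower. All spots in the background fit gave 50 and 32, with 53 lower from the processed signals or the deposited values, and leaving out 1 pair 41 to 215 higher and 11 to 127 lower.

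Signs of some fitted ratios changed, over wide ranges for Sox11 and Sox17. Leaving out 1 pair moved Sox1 to between -0.0487 and 0.0636, Sox4 to -0.0581 to 0.0222, Sox11 to -0.0787 to 0.25 (A_51_P297434: -0.0307 to 0.28), Sox12 to -0.0956 to 0.0147, Sox17 to -0.28 to 0.12, Sox18 to -0.0658 to 0.10, Sox9 A_52_P214630 to -0.0035 to 0.21 and Sox21 A_52_P557911 to -0.0389 to 0.0250. Sox4 was 0.0184 with the processed signals or value table and 0.0057 without background subtraction, Sox18 was -0.0026 with median centring, and Sox21 A_52_P557911 was 0.0236 with all spots in the background fit. The 11 dim member probes had no test in the reported fit.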
